A study of Mus musculus with 154 samples.

Results

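Lepr, Rgs16, Eif4ebp3, Lpin1, 1810053B23Rik and E030018B13Rik are 6 of the 13289 genes counted in mouse liver, and they are described here by their level in every strain, by their spread between mice of 1 strain and by the effects of substituted chromosomes. The 6 genes were listed by symbol and had been selected on measured values of these libraries, since earlier results had shown their main effects, interactions and correlations. Their levels, effects and correlations are therefore descriptions, and the calls given for them are read against the share of all genes called. The list was made for genes linked to body weight and fasting. Body weight and plasma glucose were not used here and every mouse had been fasted, so neither link was examined. Each of the 6 symbols matched 1 gene of the table, and all 6 were tested.

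The study used chromosome substitution strains (CSSs), in which 1 chromosome of the inbred strain C57BL/6J (B6) is replaced by that of strain A/J. Livers came from 20 control mice of B6, 63 mice of 8 single CSSs and 71 mice of 15 double CSSs, 5 weeks old and fasted overnight, which the study describes as male. Single CSSs were F1 mice heterozygous for 1 A/J chromosome, with 8 mice each of (B6 X B6.A3)F1, (B6 X B6.A6)F1, (B6 X B6.A14)F1, (B6 X B6.A17)F1, (B6.A4 X B6)F1, (B6.A8 X B6)F1 and (B6.A10 X B6)F1 and 7 of (B6.A5 X B6)F1. Double CSSs were F1 mice heterozygous for 2 A/J chromosomes, with 3 mice of (B6.A8 X B6.A3)F1, 6 of (B6.A8 X B6.A6)F1, 4 each of (B6.A10 X B6.A17)F1, (B6.A4 X B6.A17)F1 and (B6.A5 X B6.A6)F1 and 5 of each of the remaining 10 crosses. The sire stands first in these names. Effects are written by the chromosome, as A8, and crosses as dam:sire, as A14:A8 for (B6.A8 X B6.A14)F1. A whole chromosome was exchanged in each strain, so an effect cannot be placed on a gene of it, and an A/J allele was always present in 1 copy. The A/J chromosomes 3, 6, 14 and 17 always came from the dam and 4, 5, 8 and 10 always from the sire. The effect of a chromosome therefore cannot be told apart from that of the parent that passed it on.

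The total counts per mouse lay between 4638701 and 30465477 (median 16116424). The summed level of 9 hepatocyte markers was between 60728 and 171863 CPM, the counts scaled to the library size, over all mice. The summed levels of endothelial, Kupffer, stellate, cholangiocyte, lymphocyte and erythroid markers did not exceed 753.2 CPM in any mouse, and none of 4 adipocyte markers was in the table. Of 5 muscle markers 1 was in the table, at up to 87.7 CPM and with a correlation within strains with the 6 genes between -0.06 and 0.05. One library stood apart. The mouse (B6.A4 X B6.A14)F1 replicate 3 had a summed level of 2.94 CPM over 4 Y-linked genes, while every other mouse had between 227.5 and 432.0 CPM. It went against the description as male, and the called interactions of the 6 genes in its strain are given with and without it. The strain means and the results of the gene lists include this mouse.

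The receptor that Lepr encodes binds leptin, the hormone that adipose tissue releases in proportion to its fat stores, and signals through JAK2 and STAT3. Rgs16 encodes a regulator of G protein signalling, which speeds the hydrolysis of GTP by G alpha subunits and so shortens the signal of their receptors. Eif4ebp3 encodes an eIF4E-binding protein, a class of repressors of cap-dependent translation. Lpin1 encodes lipin 1, a phosphatidate phosphatase of triacylglycerol synthesis that also acts with PGC-1 alpha and PPAR alpha on genes of fatty acid oxidation. In fasting, the liver turns from glycolysis and fat synthesis to gluconeogenesis, fatty acid oxidation and ketone production. No role is given here for 1810053B23Rik and E030018B13Rik.

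By GENCODE vM21 on mouse build GRCm38, Lepr spans chr4:101717404-101815352 (plus strand), and it is the member that lies on a substituted chromosome. Rgs16 spans chr1:153740349-153745468 (plus strand), Lpin1 chr12:16535669-16610966 (minus strand), 1810053B23Rik chr16:93342504-93366668 (minus strand) and E030018B13Rik chr7:63916857-63920539 (plus strand). The annotation lists 1810053B23Rik as a processed transcript and the other 5 as protein coding. E030018B13Rik lies within the span of Klf13 on the opposite strand, Gm28513 is antisense to Rgs16, and AC115631.1 covers Eif4ebp3 on the same strand. The libraries were stranded, but the strand setting of the counting is not given in the sources used here. The counts of E030018B13Rik and Rgs16 are therefore uncertain. The study counted reads with an earlier GENCODE release, and AC115631.1 was not among the genes of the table. Whether that release held AC115631.1 was not examined. If it did, the counts of Eif4ebp3 are uncertain under any strand setting, since both genes lie on the same strand. Klf13 and E030018B13Rik had a correlation of -0.24 between mice of 1 strain.

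The 250 bases before the start of transcription are shown for the members whose RefSeq start lies within 10 bases of the GENCODE start, since several of these genes moved together between mice. The sequences are those of RefSeq on GRCm38.p6, the B6 reference, each in the direction of transcription, at chr4:101717157-101717406 for Lepr, chr1:153740103-153740352 for Rgs16, chr12:16610967-16611216 (minus strand) for Lpin1 and chr7:63916607-63916856 for E030018B13Rik. Capitals mark matches, on either strand, to any of the 7 motifs searched.
Lepr: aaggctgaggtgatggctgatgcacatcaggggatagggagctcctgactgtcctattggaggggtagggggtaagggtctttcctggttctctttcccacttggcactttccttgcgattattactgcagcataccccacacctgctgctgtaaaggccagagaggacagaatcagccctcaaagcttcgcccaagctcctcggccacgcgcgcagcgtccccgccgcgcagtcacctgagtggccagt
Rgs16: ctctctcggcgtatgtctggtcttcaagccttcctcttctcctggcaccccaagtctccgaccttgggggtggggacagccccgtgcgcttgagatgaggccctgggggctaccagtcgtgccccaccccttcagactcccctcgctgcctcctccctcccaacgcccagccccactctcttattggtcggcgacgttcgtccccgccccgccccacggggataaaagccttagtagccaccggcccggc
Lpin1: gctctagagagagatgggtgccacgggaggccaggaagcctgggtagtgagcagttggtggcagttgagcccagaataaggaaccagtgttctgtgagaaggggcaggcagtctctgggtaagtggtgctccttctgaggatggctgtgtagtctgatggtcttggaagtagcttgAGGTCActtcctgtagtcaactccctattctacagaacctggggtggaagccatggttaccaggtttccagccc
E030018B13Rik: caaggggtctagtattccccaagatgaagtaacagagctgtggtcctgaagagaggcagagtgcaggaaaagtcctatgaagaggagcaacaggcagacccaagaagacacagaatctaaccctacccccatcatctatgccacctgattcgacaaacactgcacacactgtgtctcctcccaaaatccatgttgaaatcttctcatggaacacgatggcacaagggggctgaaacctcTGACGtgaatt
The motifs were TGTTTAC (FOXO), TGACGTCA (the cAMP response element) and its part TGACG, and also CACGTG (E-box), TTCNNNGAA (STAT), AGGTCA (nuclear receptors) and TATAAA (core promoters). AGGTCA occurred 74 bases before the start of Lpin1, and 4607 of the 32851 windows of the same length before RefSeq starts hold it. TGACG occurred 11 bases before the start of E030018B13Rik, as in 17.8% of the windows. The windows of Lepr and Rgs16 held none of the 7 letter strings, which says nothing about the factors.

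Lepr ranged from 7.52 to 234.1 CPM over all mice (median 25.96), a 31.1-fold range. Both ends of this range were in double CSSs, the lowest mouse in (B6.A5 X B6.A3)F1 and the highest in (B6.A4 X B6.A14)F1, the library with few Y-linked counts. The second highest mouse was a B6 mouse at 211.9 CPM. Rgs16 had the widest range of the 6, 125.3-fold, from 0.508 CPM (5 counts) to 63.6 CPM (median 10.5), and the highest value was in that same library. Without it, the highest Rgs16 level was 58.8 CPM in (B6.A8 X B6.A14)F1. Lpin1 ranged from 26.6 to 576.6 CPM (median 169.8) and Eif4ebp3 from 2.73 to 40.0 CPM (median 10.8). The ranges were 21.7-fold and 14.6-fold. 1810053B23Rik ranged from 1.52 to 31.8 CPM (median 8.71) and E030018B13Rik from 1.34 to 57.3 CPM (median 12.3).

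The spread between mice of 1 strain was large for all 6 genes. On the log2 CPM scale the standard deviation within strains was 0.87 for Lepr, 1.27 for Rgs16, 0.67 for Eif4ebp3, 0.82 for Lpin1, 0.74 for 1810053B23Rik and 0.98 for E030018B13Rik, while the median gene had 0.23. Of all genes, 15 had a larger value than Rgs16 (0.113%) and 310 a larger value than Eif4ebp3 (2.33%). Strain accounted for 41.6% of the variance of Lepr, 36.4% of Eif4ebp3, 35.3% of 1810053B23Rik, 33.0% of Lpin1, 30.3% of Rgs16 and 23.04% of E030018B13Rik, against 25.9% for the median gene. In a joint test of all strain coefficients (edgeR) all 6 genes were called at an FDR of 0.05, as were 51.4% of all genes. Within strains, correlations with the log2 total count of the mouse lay between 0.08 for Lpin1 and 0.23 for Rgs16 and 1810053B23Rik.

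The order of the strains differed between the genes. Lepr was highest on average in (B6.A4 X B6.A17)F1, at 5.96 log2 CPM, followed by (B6 X B6.A17)F1 at 5.85, and lowest in (B6.A5 X B6.A3)F1 at 3.11. Of the 23 pairs of neighbours in this order, the pair at its lower end, (B6.A8 X B6.A3)F1 at 3.70 and (B6.A5 X B6.A3)F1, was the one that differed by more than the pooled standard deviation of both strains. Rgs16 was highest in (B6.A5 X B6.A17)F1 (4.59) and lowest in (B6.A10 X B6.A17)F1 (1.79), both with A/J chromosome 17, and no neighbours differed by more than their pooled standard deviation. Lpin1 was highest in (B6.A8 X B6.A3)F1 (8.23) and lowest in (B6.A5 X B6.A3)F1 (5.68), with 1 pair of neighbours beyond the pooled standard deviation. Eif4ebp3 ran from 4.19 in (B6 X B6.A17)F1 to 2.38 in (B6 X B6.A6)F1 and 1810053B23Rik from 3.77 in (B6.A4 X B6.A14)F1 to 1.85 in (B6.A5 X B6.A3)F1, without such a pair in either. E030018B13Rik ran from 4.64 in (B6.A4 X B6.A14)F1 to 2.39 in (B6.A8 X B6.A3)F1, and its highest strain stood apart from the next by more than the pooled standard deviation.

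**Figure D1:**
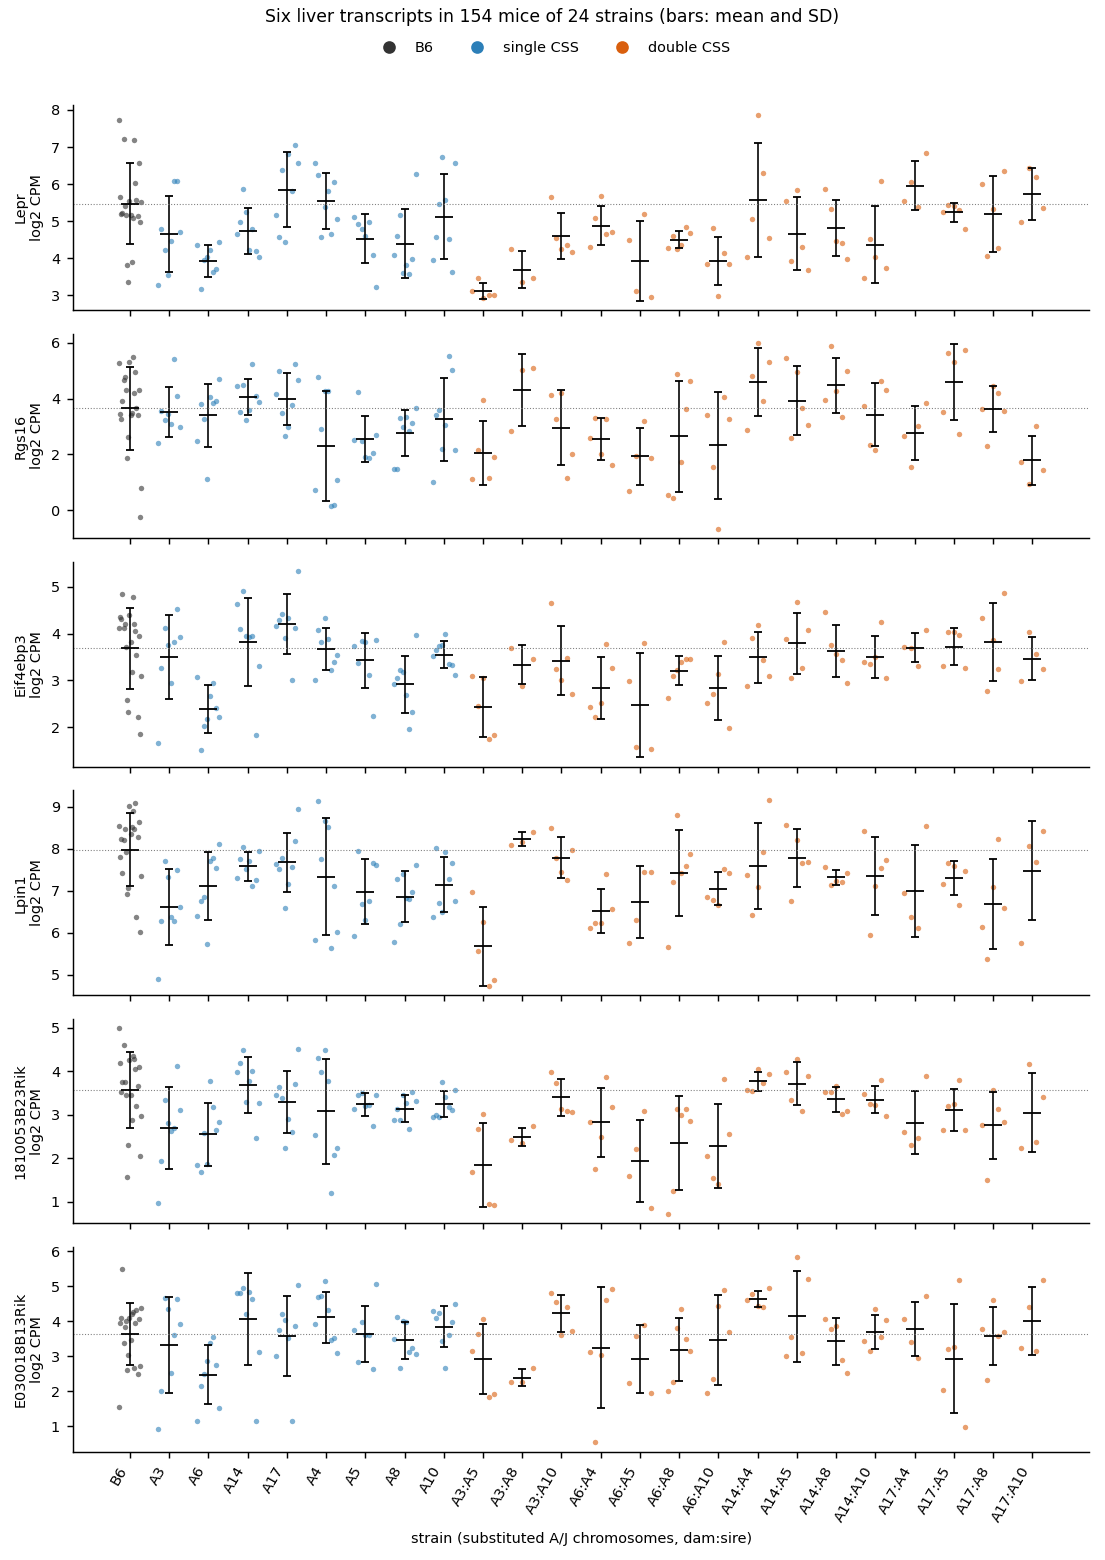
Level of each gene in log2 CPM (vertical axis, 1 panel per gene) in every mouse of the 24 strains (horizontal axis), with the mean and SD of each strain and a dotted line at the B6 mean. The B6 mice of Lepr run from 10.1 to 211.9 CPM and overlap with most strains, while the 5 mice of A3:A5 lie between 7.52 and 11.002 CPM.

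Single CSSs had lower levels than B6 for most of these genes. In the model with all main effects, interactions and 5 surrogate variables, 18 of the 48 main effects of the 6 genes were called at an FDR of 0.05, and all 18 were lower than B6. Over all genes, 11.1% of the main effects were called and 5.74% were called as lower. The genes were chosen with these effects known, so the counts describe them and support nothing more. The 8 main effects share the same 20 B6 mice. The 9 hepatocyte markers had 19 called main effects, 17 of them lower, among them 6 in A8 (median log2 fold change of the list -0.32) and 5 in A14 (-0.29), and their part in the result was not tested. Of all genes, 29.6% were called in A8 and 22.5% in A14.

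Lepr had 40.1 CPM in the median B6 mouse, with 10.1 in the lowest and 211.9 in the highest. In (B6 X B6.A6)F1 the 8 mice had between 8.83 and 21.8 CPM (median 15.8), all below the B6 median. In (B6.A8 X B6)F1 they had between 11.8 and 77.5 CPM (median 16.4). (B6 X B6.A6)F1 overlapped with B6 in its lower part, while the highest mouse of (B6.A8 X B6)F1 lay above the B6 median. The fitted log2 fold changes were -1.53 ± 0.33 (SE) for A6 and -1.57 ± 0.36 for A8. Lepr was also called for A14 (-1.52 ± 0.33), A3 (-1.22 ± 0.31) and A10 (-1.11 ± 0.33). In A17 its level was 69.4 CPM in the median mouse and the log2 fold change was 0.48 ± 0.32, which was not called. In A4, the strain with an A/J copy of the chromosome that carries Lepr, the 8 mice had between 23.9 and 94.9 CPM (median 48.8), and the log2 fold change of -0.18 had a 95% interval from -0.80 to 0.45.

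Rgs16 had 13.8 CPM in the median B6 mouse (0.727 to 45.2). In (B6.A8 X B6)F1 the 8 mice had between 2.65 and 12.5 CPM (median 8.16), so that even the highest of them lay below the B6 median. The log2 fold change for A8, -1.77 ± 0.51, was the one called main effect of Rgs16. In (B6.A4 X B6)F1 the levels fell into a wider range, from 0.982 to 27.1 CPM (median 4.67), and the log2 fold change of -1.20 ± 0.47 was not called.

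Lpin1 had 306.5 CPM in the median B6 mouse (64.6 to 546.7). The median was 90.6 CPM in (B6 X B6.A3)F1 (29.7 to 208.0) and 119.5 CPM in (B6.A8 X B6)F1 (54.9 to 197.1), and all 16 mice of both strains lay below the B6 median. The log2 fold changes were -1.26 ± 0.29 for A3 and -1.49 ± 0.33 for A8, and those called for A10 and A6 were -1.04 ± 0.32 and -0.98 ± 0.30. All 8 main effects of Lpin1 were below 0 and had an unadjusted p under 0.05.

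Eif4ebp3 had 15.9 CPM in the median B6 mouse (3.51 to 28.4) and 4.90 CPM in the median mouse of (B6 X B6.A6)F1, where the 8 mice lay between 2.73 and 8.36 CPM. Its log2 fold change was -1.01 ± 0.20 for A6, -0.83 ± 0.20 for A8 and -0.60 ± 0.19 for A10. 1810053B23Rik was called for A3, A6, A4, A8 and A10, with log2 fold changes between -0.96 and -0.80. Its level was 12.9 CPM in the median B6 mouse (2.87 to 31.8) and 6.01 CPM in that of (B6 X B6.A6)F1 (3.11 to 13.6). None of the 8 main effects of E030018B13Rik was called by edgeR, 1 had an unadjusted p under 0.05, and they lay between -0.67 (A6) and 0.33 (A4).

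The surrogate variables moved some of these values. They held 55.9% of the variance within strains of Eif4ebp3, 51.5% of 1810053B23Rik and 51.3% of E030018B13Rik, and between 22.9% and 27.8% of that of the other 3 genes, against 21.4% in the median gene. In the plain strain means, all 18 called main effects were also below B6. For Lepr the mean difference was -1.08 in A8 but -0.35 in A10, while the model gave -1.57 and -1.11. Of all 48 main effects, 8 had the other sign in the plain means, among them Rgs16 in A14 (-0.44 in the model and 0.42 in the means). With no surrogate variables, or with 10 of them, 10 of the 48 were called.

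**Figure D2:**
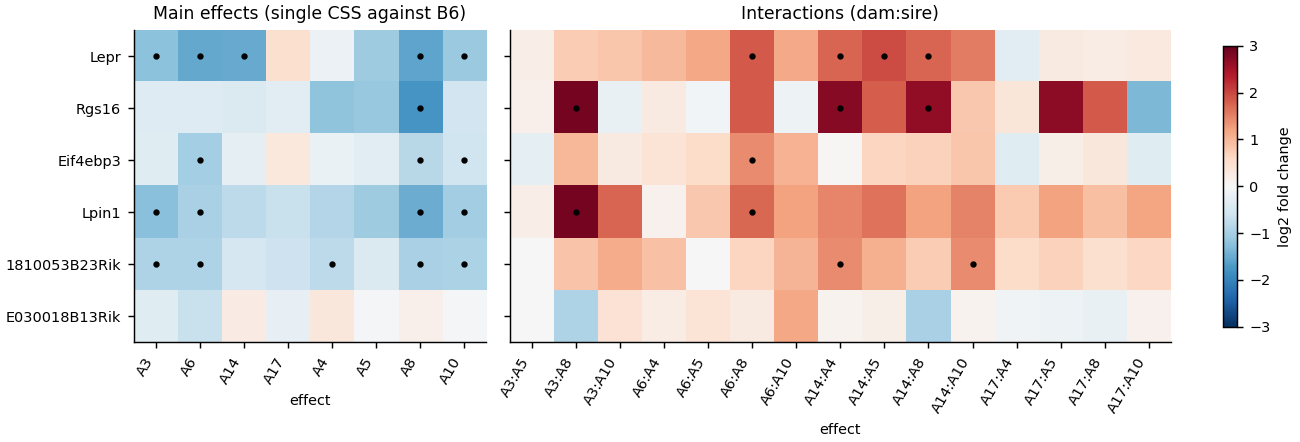
Fitted log2 fold changes of the 6 genes (rows) for 8 main effects (left) and 15 interactions (right), from blue (below 0) to red (above 0), with a dot where the effect was called at an FDR of 0.05. The 18 called main effects are all below 0 and the 12 called interactions all above 0.

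The double CSSs address whether the effect of 1 A/J chromosome depends on the presence of another. An interaction is the difference, on the log2 scale, between a double CSS and the sum of its single CSSs. Of the 90 interactions of the 6 genes 12 were called, and all 12 were positive, which means that the double CSS lay above the sum. Over all genes, 5.96% of the interactions were called and 3.35% were called as positive. Again the genes were chosen with such results known, and the tests share the B6 mice and the single CSSs. The 9 hepatocyte markers had 23 of 135 interactions called, all 23 positive, with 6 of the 9 called in A6:A8 and 6 in A14:A8, and their part in the result was not tested. Of all genes, 24.8% had a called interaction in A6:A8 and 32.4% in A14:A8.

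Lpin1 in A3:A8 had the largest called interaction, 2.87 ± 0.58 (SE). The 3 mice of (B6.A8 X B6.A3)F1 had 273.3, 288.9 and 341.0 CPM, close to the B6 median of 306.5 CPM, while the highest mice of the single CSSs had 208.0 CPM in A3 and 197.1 CPM in A8. The mice of the cross and of its single CSSs did not overlap. The share of all genes without such overlap was not counted, and Lpin1 was chosen with its values known. In this cross 7.56% of all genes had a called interaction. The sum of both main effects was -2.75, and the double CSS differed from B6 by 0.12. Rgs16 in the same cross had 6.96, 32.4 and 34.3 CPM, a sum of main effects of -2.15 and an interaction of 2.87 ± 0.84, which was not called without replicate 3 (2.44). Lepr remained low in the same 3 mice, at 10.1, 10.98 and 19.1 CPM, with a log2 fold change of -2.02 ± 0.51 against B6 and an interaction of 0.77 that was not called.

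In A6:A8, 3 of the genes had a called interaction. Lepr lay between 19.1 and 28.6 CPM in the 6 mice (median 22.3), while the median was 15.8 CPM in A6 and 16.4 CPM in A8. The sum of its main effects was -3.10 and the interaction 1.84 ± 0.55. Eif4ebp3 lay between 6.09 and 10.9 CPM, and its median of 9.80 was above the highest mouse of A6 (8.36), with an interaction of 1.41 ± 0.32. Lpin1 was spread from 50.3 to 445.2 CPM (median 183.2), and its interaction was 1.72 ± 0.50. Rgs16 was spread as widely, from 1.24 to 29.1 CPM, and its interaction of 1.83 was not called. In this cross 24.8% of all genes had a called interaction.

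In the crosses with A14, Lepr was called with A4, A5 and A8, with interactions of 1.75 ± 0.56, 1.96 ± 0.57 and 1.74 ± 0.57. In the plain strain means these were smaller, at 0.75, 0.86 and 1.15. The difference of A14 from B6 was -0.73 in the plain means and -1.52 in the model. The 5 mice of (B6.A4 X B6.A14)F1 had 16.4, 23.3, 33.6, 78.2 and 234.1 CPM, and the highest was the library with few Y-linked counts. Without that mouse in the whole fit the interaction was 1.33 and was not called, and it was also not called without replicate 4 (1.57) or replicate 5 (1.83) of this strain. The 5 mice of (B6.A5 X B6.A14)F1 had 12.8, 15.03, 19.6, 46.9 and 57.7 CPM, and the call was lost when either of the 2 highest was left out (1.61 and 1.90). The 5 mice of (B6.A8 X B6.A14)F1 had 15.7, 21.2, 22.1, 40.1 and 58.0 CPM, and the call did not depend on 1 mouse. Of all genes, 4.63% had a called interaction in A14:A4, 4.04% in A14:A5 and 32.4% in A14:A8.

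Rgs16 was called in A14:A4 (2.72 ± 0.78) and A14:A8 (2.66 ± 0.78). In (B6.A4 X B6.A14)F1 the 5 mice had 7.13, 15.1, 28.2, 39.8 and 63.6 CPM, again with the highest value in the library with few Y-linked counts, and without it the interaction was 2.29 and was not called. The same held without replicate 5 of this strain (2.51). In (B6.A8 X B6.A14)F1 the 5 mice had 9.89, 15.3, 19.1, 31.6 and 58.8 CPM, 4 of them above the B6 median of 13.8 and 4 above the highest mouse of (B6.A8 X B6)F1. They overlapped with the 8 mice of (B6 X B6.A14)F1, which had between 9.38 and 37.9 CPM (median 15.7). In the plain strain means both interactions were smaller, at 1.87 in A14:A4 and 1.29 in A14:A8. The difference of A14 from B6 was 0.42 in the plain means and -0.44 in the model. The call in A14:A8 was kept when each of the 5 mice was left out in turn, with values between 2.24 and 2.87. In that cross 32.4% of all genes had a called interaction. In A17:A5, the cross with the highest mean of Rgs16, the mice had 6.54, 11.4, 39.4, 49.3 and 53.5 CPM and the interaction of 2.68 was not called.

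1810053B23Rik was called in A14:A4 (1.42 ± 0.37) and A14:A10 (1.41 ± 0.38), where 4.63% and 4.16% of all genes had a called interaction. The mice of (B6.A4 X B6.A14)F1 had 11.6, 11.8, 13.1, 15.3 and 16.5 CPM, within a narrow range around the B6 median of 12.9 CPM, and the interaction was 1.31 and not called without the library with few Y-linked counts. The mice of (B6.A10 X B6.A14)F1 had 7.69, 9.21, 9.45, 10.996 and 13.8 CPM, and in the plain strain means this interaction was -0.02. For the remaining 11 called interactions, the double CSS also lay above the sum of the single CSSs in the plain means. None of the 15 interactions of E030018B13Rik was called by edgeR, and 2 had an unadjusted p under 0.05.

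The calls of interactions depended on the surrogate variables. Without any, 5 of the 12 were called, which were Lepr, Eif4ebp3 and Lpin1 in A6:A8, Lpin1 in A3:A8 and Rgs16 in A14:A8. With 10 surrogate variables none of the 90 was called, 22 had an unadjusted p under 0.05, and DESeq2's Wald test with 5 surrogate variables called 14. Over all genes, 17691 interactions were called by edgeR without surrogate variables and 2443 with 10, against 11879 with 5.

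In the fitted values, double CSSs lay closer to B6 than the sum of their single CSSs in all 15 crosses for Lepr and for Lpin1, in 14 for 1810053B23Rik, in 11 for Rgs16 and for Eif4ebp3 and in 8 for E030018B13Rik. The median sum of both main effects over the crosses was -2.33 for Lepr, while the median of the double CSSs against B6 was -1.10. For Lpin1 these medians were -2.02 and -0.75. In the plain strain means, without surrogate variables, the crosses closer to B6 than the sum were fewer for some genes, with 11 of 15 for Lepr, 14 for Lpin1, 11 for 1810053B23Rik, 6 for Rgs16, 12 for Eif4ebp3 and 8 for E030018B13Rik, and 15 of the 90 interactions had the other sign. The sum and the double CSS share the B6 mice, so the counts are a description.

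**Figure D3:**
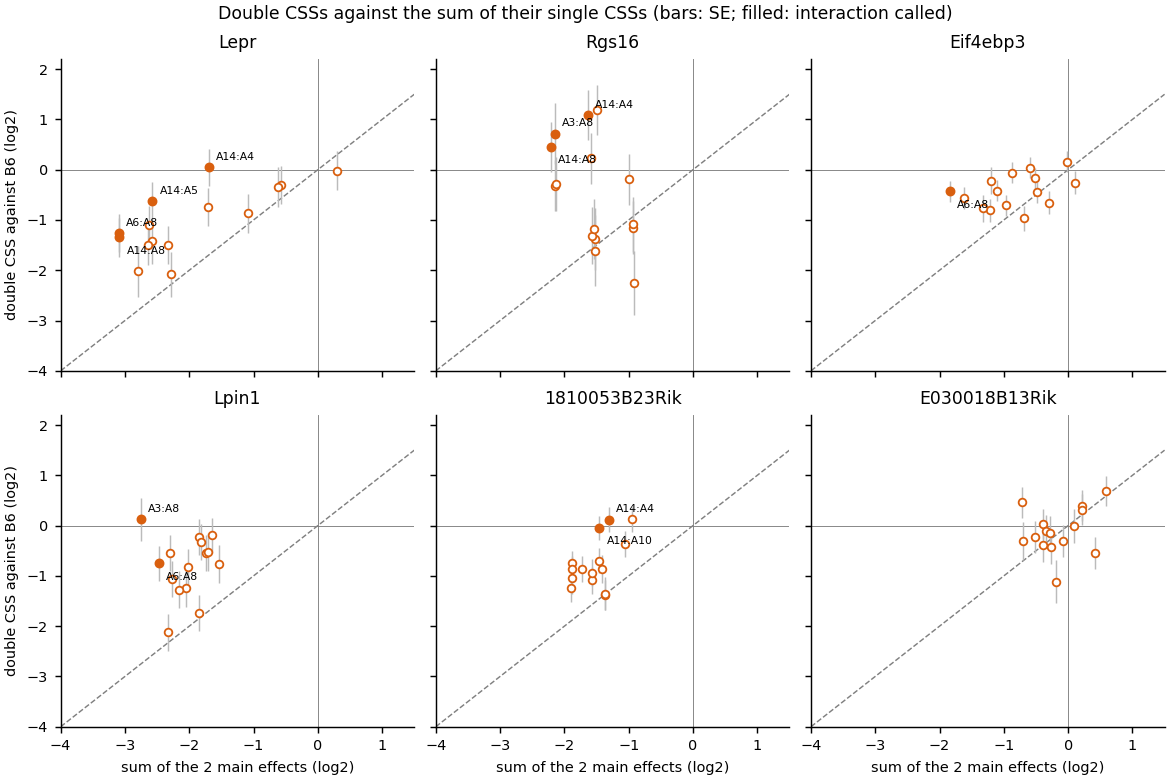
Fitted log2 difference of each double CSS from B6 (vertical axis, with its SE) against the sum of both main effects (horizontal axis), in 1 panel per gene, with a dashed line where both are equal and filled points where the interaction was called. For Lepr and Lpin1 the 15 crosses lie on the side of the line nearer to B6.

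Against B6 itself, 13 of the 90 differences of double CSSs were called, all 13 lower, where 3.98% of the differences of all genes were called and 1.83% were called as lower. (B6.A5 X B6.A3)F1 held 4 of them. Its 5 mice had 7.52, 7.94, 8.01, 8.57 and 11.002 CPM of Lepr, and 26.6, 29.3, 46.9, 75.8 and 124.9 CPM of Lpin1. For Lepr, 4 of the 5 mice lay below the lowest B6 mouse (10.1 CPM), and for Lpin1 the same held for 3 of the 5 (64.6 CPM). The log2 fold changes were -2.08 ± 0.44 for Lepr, -2.12 ± 0.36 for Lpin1, -1.38 ± 0.30 for 1810053B23Rik and -0.97 ± 0.25 for Eif4ebp3, and the interactions of these genes in A3:A5 lay between -0.28 and 0.21. The strain label of replicate 1 (8.57 CPM of Lepr and 124.9 CPM of Lpin1) lacks F1, and this mouse was counted with the cross. These 4 calls were kept when each mouse was left out in turn, this one included. In this cross 13.5% of all genes were called against B6.

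Several of the genes moved together between mice of 1 strain. After the mean of each strain was taken away, the median correlation of the 15 pairs was 0.43 over all mice, and it was 0.56 over the 24 strain means. The points share libraries, so the correlations are descriptions. Eif4ebp3 and 1810053B23Rik had the highest value within strains, 0.67, followed by Lpin1 and 1810053B23Rik (0.66) and by Rgs16 and Lpin1 (0.61). Lepr was correlated with Eif4ebp3 (0.52) and 1810053B23Rik (0.43) but less with Rgs16 (0.24), Lpin1 (0.16) and E030018B13Rik (0.04).

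In the 20 B6 mice alone, the pairs Rgs16 and 1810053B23Rik (0.81), Lepr and 1810053B23Rik (0.80) and Rgs16 and Lpin1 (0.78) had the highest values. Lepr and E030018B13Rik had -0.21 in B6, although their strain means had 0.60. E030018B13Rik and 1810053B23Rik had 0.05 in B6 but 0.67 within the single CSSs and 0.74 within the double CSSs. The difference between these groups was not tested. With the surrogate variables taken out the median over pairs was 0.29, and without the library with few Y-linked counts it was 0.44. The summed hepatocyte markers had correlations within strains between 0.20 for Lepr and 0.42 for Eif4ebp3, and their part in the result was not tested.

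**Figure D4:**
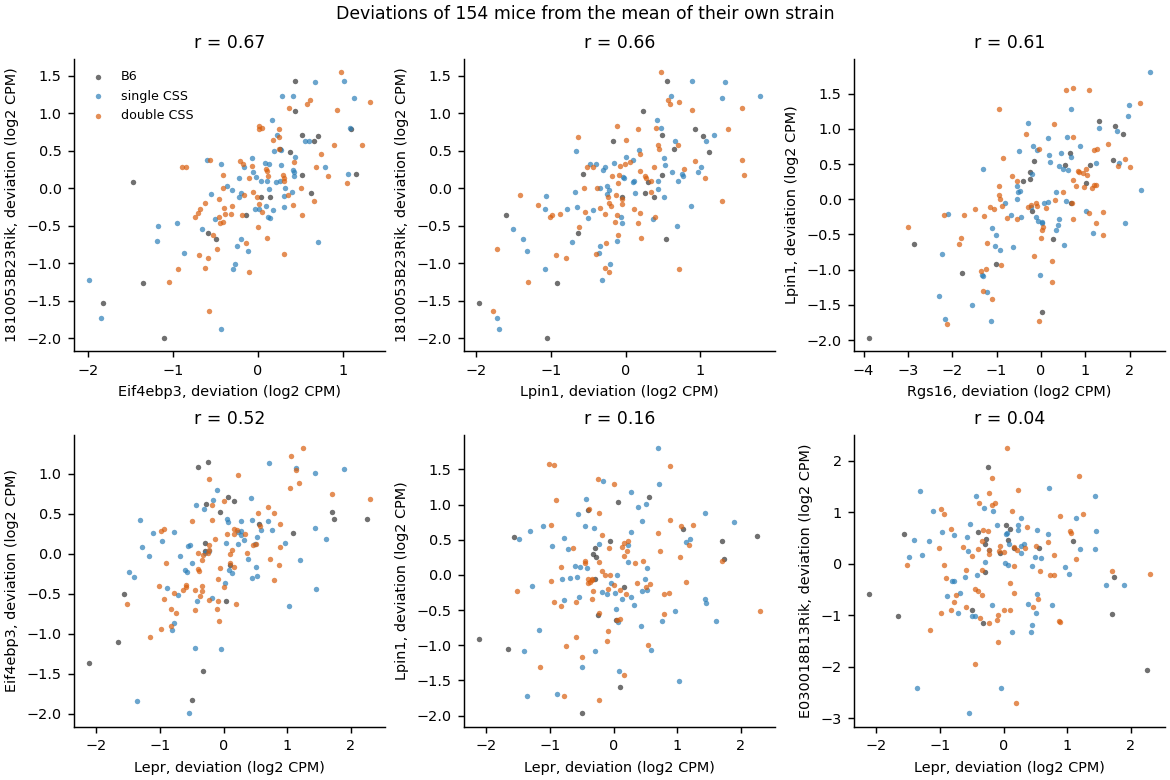
Deviation of each mouse from the mean of its strain, in log2 CPM, for 6 pairs of genes, with 1 point per mouse coloured by class of strain. The points rise together for Eif4ebp3 and 1810053B23Rik (r = 0.67) and scatter without a trend for Lepr and E030018B13Rik (r = 0.04).

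Among 9711 further genes whose mean level was 2 or more on the log2 CPM scale, those most like Lepr within strains were the noncoding or unnamed genes Gm20186 (0.69), Gm12840 (0.63) and Gm20400 (0.63). The lowest correlations with Lepr were those of Ghr, the growth hormone receptor (-0.75), Car3, a carbonic anhydrase (-0.73), and Hsd3b2 (-0.72). For Lepr, 1.33% of the genes were under -0.5 and 0.433% over 0.5. Over strain means Lepr was most like Pabpc4 (0.85), a poly(A)-binding protein gene, Acsl4 (0.81), an acyl-CoA synthetase gene, and Atg16l2 (0.80).

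Lpin1 was most like Il6ra, the interleukin 6 receptor gene (0.80), Susd6 (0.79) and Tmc7 (0.76) within strains, and like D230025D16Rik (0.87), Rhbdd2 (0.84) and St3gal5 (0.83) over strain means. Rgs16 was most like Ip6k2 (0.65), Tango2 (0.64) and Map2k6 (0.64) within strains. Map2k6, a MAP kinase kinase gene, was also first over the strain means (0.71), followed by Acss3 (0.68) and Mettl2 (0.67). Eif4ebp3 was most like Tmem62 (0.76), Slc37a4 (0.75), the glucose-6-phosphate transporter gene of gluconeogenesis and glycogen breakdown, and Gm20186 (0.73), and over strain means like Eif2b3 (0.81), Igfbp1 (0.81) and Atg16l2 (0.81).

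1810053B23Rik was most like Retreg1 (0.79), Pole4 (0.77) and Nrg4 (0.76) within strains and like Nudt18 (0.78), Ei24 (0.76) and Spata5 (0.76) over strain means. E030018B13Rik was most like Bhmt (0.80) and Hpd (0.74), enzymes of methionine and tyrosine metabolism, with Gm27252 (0.76) between them. Over strain means it was most like Gm27252 (0.87), Arg1 (0.81), the arginase of the urea cycle, and Insig2 (0.80).

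The genes around the 6 members were described with 8 lists of liver pathways. Of 25 genes known to be induced in the fasted liver, 40 of 200 main effects were called, 36 of them lower, and 40 interactions, 39 of them positive, against 11.1% and 5.96% of all genes. The 40 interactions were 10.7% of those tested. In A8, 14 of the 25 were called and all 14 were lower, where 29.6% of all genes were called. The median log2 fold change of the list was -0.15 over the main effects and 0.17 over the interactions, while the medians of all genes lay between -0.01 and 0.02 in each of these effects.

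The largest of these effects were in Igfbp1, which encodes an insulin-repressed binding protein of insulin-like growth factors, with a log2 fold change of -1.40 ± 0.36 in A8 (adjusted p = 0.00234, edgeR) and an interaction of 2.26 ± 0.55 in A6:A8 (adjusted p = 0.00099, edgeR). Ppargc1a, which encodes the coactivator PGC-1 alpha, fell by 0.98 ± 0.18 in A3 (adjusted p = 0.00109, edgeR) and had an interaction of 1.30 ± 0.36 in A3:A8 (adjusted p = 0.013, edgeR). Tat, a gene of tyrosine breakdown, fell by 0.91 ± 0.20 in A8 and had an interaction of 1.39 ± 0.35 in A3:A8. Within strains the list had a median correlation of 0.31 with Lepr, 0.30 with Lpin1 and Eif4ebp3, 0.29 with 1810053B23Rik, 0.23 with Rgs16 and 0.15 with E030018B13Rik, while the medians over 9711 genes lay between -0.01 and 0.02. Igfbp1 was the gene of the list most like Lepr (0.63), Foxo3 that most like Lpin1 (0.65) and Asl, a gene of the urea cycle, that most like Eif4ebp3 (0.68) and E030018B13Rik (0.72).

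Of 19 genes known to be induced by feeding, 17 of 152 main effects were called, 8 higher and 9 lower, and 17 interactions (11.2% and 5.96% of those tested), where 11.1% and 5.96% of all genes were called. Fasn, which encodes fatty acid synthase, had an interaction of 0.93 ± 0.24 in A14:A8 (adjusted p = 0.00149, edgeR), the cross in which Lepr and Rgs16 were also called as positive. Scd1, a stearoyl-CoA desaturase gene, rose by 0.90 ± 0.21 in A6 (adjusted p = 0.00211, edgeR), where Lepr was lower. Within strains the list had median correlations of -0.20 with Lepr, -0.06 with Eif4ebp3, -0.13 with 1810053B23Rik, -0.10 with E030018B13Rik and 0.05 with both Rgs16 and Lpin1. With Eif4ebp3 the values ran from -0.52 for Mlxipl, the gene of the carbohydrate response factor ChREBP, and -0.51 for Scd1 to 0.62 for Acacb, which was also the gene of the list most like E030018B13Rik (0.50).

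**Figure D5:**
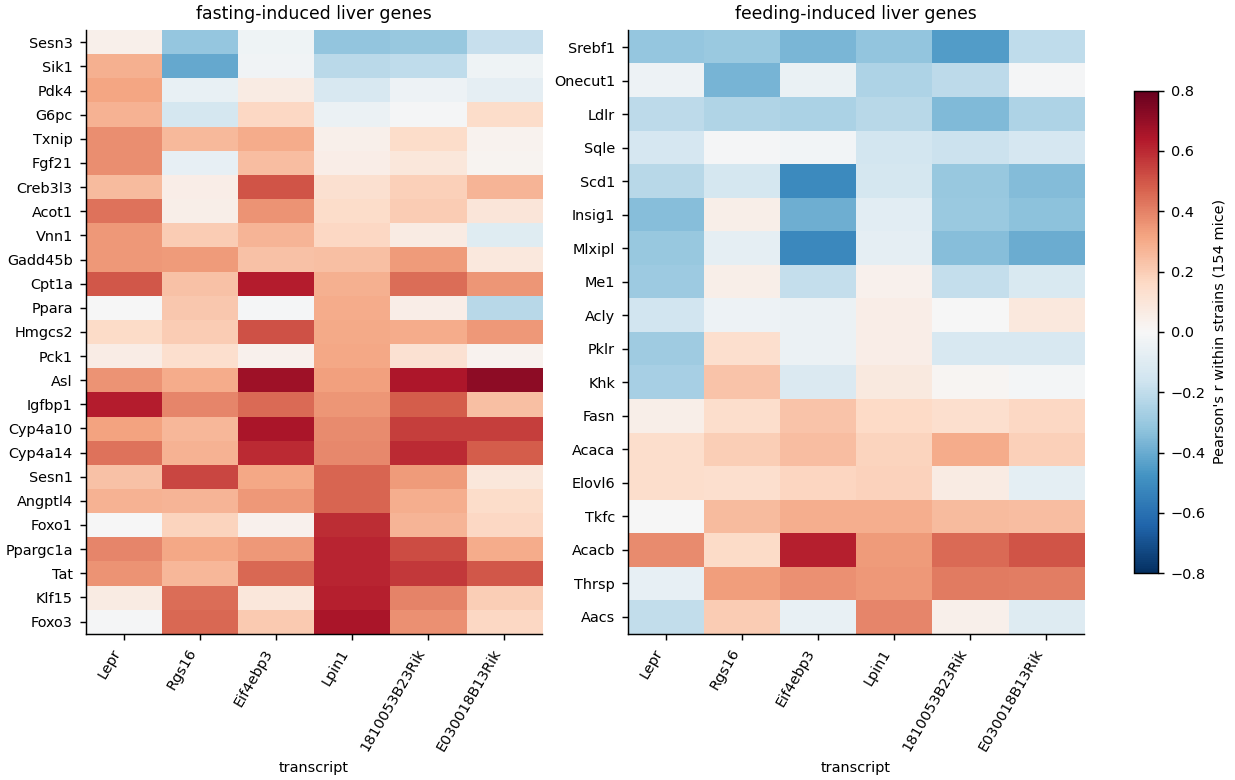
Pearson's r within strains over all mice between the 6 genes (columns) and the genes of the fasting-induced (left) and feeding-induced (right) lists (rows), from blue (negative) to red (positive). Igfbp1 is the reddest row for Lepr (0.63) and Foxo3 the reddest for Lpin1 (0.65).

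The 16 measured genes of leptin receptor signalling had correlations with Lepr within strains between -0.32 (Grb2) and 0.31 (Irs2). Of their 128 main effects 13 were called (10.2%), 8 of them higher, and 12 interactions were called (5.0%), where 11.1% and 5.96% of all genes were called. Stat3, the transcription factor of the pathway, fell by 0.57 ± 0.09 in A8 (adjusted p = 2.54e-07, edgeR), by 0.42 ± 0.08 in A14 and by 0.26 ± 0.08 in A6, where Lepr was called as lower too. Its interactions of 0.79 ± 0.13 in A6:A8, 0.68 ± 0.14 in A14:A8 and 0.47 ± 0.14 in A14:A5 were called in the same direction as those of Lepr, and 3 further ones were called as positive in A3:A8, A14:A10 and A17:A8, where Lepr was not called. Jak2, the kinase bound to the receptor, rose by 0.28 ± 0.06 in A8. Lep, the gene of the hormone, was not among the genes of the table.

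Among 14 RGS and G alpha genes the correlations with Rgs16 lay between -0.31 and 0.19, and 8 of 112 main effects were called (7.14%, against 11.1% of all genes). Rgs5 had an interaction of -1.33 ± 0.19 in A14:A8 (adjusted p = 1.87e-08, edgeR), the cross in which that of Rgs16 was 2.66. Of 18 genes of the 4E-BPs and mTORC1, 27 of 144 main effects were called (18.8%, against 11.1% of all genes), 21 of them lower. Eif4g1, the scaffold that 4E-BPs displace from eIF4E, fell by 0.42 ± 0.06 in A8 and had an interaction of 0.72 ± 0.09 in A14:A8. Tfeb, a transcription factor gene of lysosome formation, had an interaction of 0.61 ± 0.18 in A14:A4.

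Of 14 lipin and triacylglycerol synthesis genes, 28 of 112 main effects were called (25.0%, against 11.1% of all genes), 22 of them lower. Of their interactions 20 were called (9.52%, against 5.96% of all genes), 18 of them positive. Lpin2 was the gene of the list most like Lpin1 (0.75). It fell by 0.59 ± 0.16 in A8 and had an interaction of 1.32 ± 0.28 in A3:A8 (adjusted p = 0.0011, edgeR), where Lpin1 had 2.87. Cidec, a gene of lipid droplet growth, was the gene of this list most like Lepr (0.56) and Eif4ebp3 (0.70). It was lower in A10 (-1.62 ± 0.41), A14 (-1.44 ± 0.39), A8 (-1.35 ± 0.43) and A6 (-1.20 ± 0.41), where Lepr was lower too, and its interaction in A6:A8 was 2.53 ± 0.66.

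Of 12 glucocorticoid targets, 18 of 96 main effects were called (18.8%, against 11.1% of all genes), 12 of them lower. Fkbp5 was close to Lpin1 within strains (0.74). It fell by 0.77 ± 0.21 in A8 and had an interaction of 1.40 ± 0.37 in A3:A8. Lcn2 fell by 2.23 ± 0.53 in A8 and had an interaction of 3.51 ± 0.80 in A6:A8. Of 16 clock genes, 17 of 128 main effects were called (13.3%, against 11.1% of all genes), 9 higher and 8 lower. Their correlations with Lepr lay between -0.17 and 0.23, and Ciart was the clock gene most like Rgs16 (0.38) and Lpin1 (0.52). Dbp fell by 1.55 ± 0.43 in A4 and Per3 had an interaction of 2.30 ± 0.57 in A14:A8.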

How the data were processed

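RNA was sequenced from the livers of 20 B6, 63 single CSS and 71 double CSS mice. Per the study's methods and the submitters' processing notes, the authors aligned stranded single-end reads with TopHat2 to mm10, mapped what was left to a genome built for A/J, obtained counts from HTSeq and removed genes with few counts and 3 outlying mice. The deposited values are raw counts of 13289 genes. Gene names and positions came from GENCODE vM21 (13242 of 13289 matched). Body weight and plasma glucose were not used, and 1 gene of the list induced by feeding is counted with its list but not reported here or drawn.

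Counts were normalized with TMM in edgeR 4.0.16 (R 4.3.3), and 5 surrogate variables came from svaseq (sva 3.50.0). edgeR's quasi-likelihood test was fitted to all genes, with the 8 main effects and 15 interactions that the study's model also held. P-values of each effect were corrected by the Benjamini-Hochberg method, apart for genes on and off the substituted chromosomes. The FDR threshold was 0.05. Over all genes, 11765 main effects and 11879 interactions were called. The study reported fewer of each in total at the same threshold, though not fewer interactions in every cross. The calls given here are therefore not a repeat of the study's calls, and the cause of the gap was not tested. Log2 CPM values used a prior count of 2. Errors of fold changes are standard errors from the model fitted here. The model was also run on simulated counts with 100 changed genes for A8 and 100 for A14:A8, and it called all of them. These counts held no hidden factor shared between mice, so the run says nothing about the choice of surrogate variables. P-values and standard errors rest on the spread between mice of a strain that remained after the surrogate variables, taken over all strains together.

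The 6 genes and the lists were chosen with earlier results of these data known. Named beside them are, per list, called genes with the largest log2 fold changes and an average log2 CPM of at least 2, and per member the 3 genes with the highest correlations (for Lepr also the 3 lowest). Genes named as the most or least like a member within a list, and Lep, were chosen after their values were seen. Alternatives were 0 or 10 surrogate variables, DESeq2 1.42.0 size factors and Wald test, a filter of 15 counts in 75% of mice, 1 adjustment over all genes, and mice left out.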

Additional observations from a re-analysis of the deposited data

Results flagged for a closer look

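For each of the 6 genes, the 22 strains with 4 to 10 mice were examined. In 2 of these groups 1 mouse lay far from the others of its strain by Dixon's criterion, where chance gives about 1 in 20. Lepr was 50.5 CPM (670 counts) in (B6.A10 X B6.A3)F1 replicate 1 and between 17.7 and 23.3 CPM in the 4 others. Rgs16 was 18.9 CPM (371 counts) in (B6.A5 X B6)F1 replicate 2 and between 3.51 and 6.42 CPM in the 6 others.

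In the model with 5 surrogate variables, the double CSS lay above the sum of its single CSSs in the 12 called interactions, on the log2 scale. Without surrogate variables 5 interactions were called, and with 10 of them none of the 90 was. For Lepr the 12 called interactions included 1.84 in A6:A8, 1.75 in A14:A4, 1.96 in A14:A5 and 1.74 in A14:A8. For Rgs16 they were 2.87 in A3:A8, 2.72 in A14:A4 and 2.66 in A14:A8, and for Lpin1 2.87 in A3:A8 and 1.72 in A6:A8. Eif4ebp3 had 1.41 in A6:A8, and 1810053B23Rik had 1.42 in A14:A4 and 1.41 in A14:A10, where the plain strain means gave -0.02. The interactions called in A14:A4 were not called without (B6.A4 X B6.A14)F1 replicate 3, the library with few Y-linked counts, for Lepr (1.33), Rgs16 (2.29) and 1810053B23Rik (1.31), in a fit to the remaining mice. With the surrogate variables kept, the last of these was lost without replicate 5 of the same strain (1.27).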

How the results depend on the processing

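The number of surrogate variables had the largest effect among the alternatives. For the 6 genes, 18 main effects, 12 interactions and 13 differences from B6 were called with 5 surrogate variables, and without any these counts were 10, 5 and 8. With 10, they were 10, 0 and 9, with 1 of the 9 higher than B6, and the calls in the 8 lists fell from 168 to 44 for main effects and from 148 to 21 for interactions. Over all genes the same counts were 11765, 11879 and 7939 with 5 surrogate variables. They were 14252, 17691 and 5472 without any, and 4519, 2443 and 5684 with 10. Without surrogate variables, main effect and interaction calls thus fell for the 6 genes but rose over all genes. The cause was not tested. Of the 43 called effects of the 6 genes, 21 were still called without surrogate variables and 18 with 10, 43 with DESeq2's size factors, 43 with its Wald test, 43 with 1 adjustment over all genes, and 39 each with the stricter count filter and without the library with few Y-linked counts. No value changed its sign in these settings. Leaving out 1 double CSS mouse at a time gave between 9 and 13 called interactions and between 11 and 15 differences from B6. Lepr in A3:A8 against B6 was not called without any 1 of its 3 mice (-2.20 to -1.92), and the calls against B6 were also lost without 1 mouse, for Lepr in A14:A8 (without replicate 2, 3, 4 or 5, -1.35 to -1.24), Eif4ebp3 in A6:A4 (without 1, 2, 3 or 5, -0.80 to -0.72), Lpin1 in A17:A8 (without 1, 2 or 5, -1.13 to -1.05) and 1810053B23Rik in A6:A4 (without 1, 2, 3 or 5, -0.87 to -0.73), A6:A5 (without 1 or 4, -1.28 and -1.18), A6:A8 (without 1, -1.11) and A17:A8 (without 2 or 5, -0.96 and -0.84). The median correlation between members lay between 0.29 and 0.45 within strains and between 0.48 and 0.56 over strain means. No paired analysis was possible because the labels give no replicate numbers shared between strains.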
